A study of Mus musculus with 12 samples.

Results

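Cytochrome P450 genes encode haem-containing monooxygenases, and the 66 genes described here are those on the array whose mouse symbol starts with Cyp, followed by a family number, a subfamily letter and a gene number. They are 66 of 15200 genes measured. Each was represented by 1 probe set, and for other genes with several, the brightest on average was kept. The arrays held total RNA from mouse brain endothelial cells of 4 sources, with 3 arrays for each source. The non-cultured source held microvascular endothelium of brain, sorted with magnetic beads that carry an antibody to PECAM1, an adhesion protein of endothelium. The single-cultured source was microvascular endothelium of brain after 5 days on transwell filters. Co-cultured cells were kept on filters for the same 5 days with glial cultures of mouse brain, 3 weeks old, in the well underneath and out of contact. The last source was b.End5, a single transformed line derived from an endothelioma of mouse brain. The labels give no strain, age or sex, and name the bead step for the non-cultured cells alone, so sorting and the absence of culture cannot be told apart in comparisons with that group. Whether replicates came from separate preparations is not stated, so the p-values reflect the spread among these arrays alone, which may be technical. The title names culture-induced change of the blood-brain barrier transcriptome as the subject of the study.

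P450 enzymes sit in the membrane of the endoplasmic reticulum or of mitochondria and use electrons handed on by partner proteins to insert oxygen into drugs, steroids, fatty acids, vitamins and other lipids. Families 1 to 3 are known mostly for the oxidation of drugs and other foreign compounds, family 4 for the hydroxylation of fatty acids, and the families with higher numbers for steps in sterol, steroid, vitamin D and retinoic acid metabolism. In brain endothelium they are regarded as part of the enzymatic barrier that stands beside the tight junctions and efflux pumps. Many P450 genes are expressed chiefly in liver. Several subfamilies hold close relatives in tandem, among them Cyp2c, Cyp2d, Cyp2j, Cyp3a, Cyp4a and Cyp4f, so a probe set of those subfamilies may also bind a relative's transcript and its values are uncertain to that degree.

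All values are log2 values that the authors made with RMA, a method that corrects background, brings the arrays to a common distribution and summarises probes. Levels of different genes on this scale depend on their probes and are not set against each other. For each array a control level was set at the 95th percentile over 27 probe sets for bacterial transcripts with no target in mouse RNA (4.01 to 4.46). A gene was counted as above that level where it exceeded it on all 3 arrays of at least 1 source. By this rule 25 of the 66 P450 genes (37.88%) lay above the level, against 82.87% of all genes. The number was 20 in non-cultured (30.3%), 23 in single-cultured (34.85%), 24 in co-cultured (36.36%) and 20 in b.End5 cells (30.3%). Of all genes, 79.43%, 78.19%, 79.82% and 77.59% lay above the level in the same order. In all 4 sources 16 P450 genes (24.24%) lay above it, against 73.68% of all genes. Just inside the limit were Cyp2d26, 0.18 above the level on the lowest array of its highest source, and Cyp17a1, 0.29 above. Just outside were Cyp2c29, which missed by 0.05 (margin -0.05), and Cyp8b1 (margin -0.12). With a level raised by 1 log2 unit, 15 genes remained above it.

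The other 41 P450 genes did not reach the level on all 3 arrays of any source, and 36 of them lay at or under it on each of the 12 arrays. They comprised all 5 measured Cyp3a genes (Cyp3a11, Cyp3a13, Cyp3a16, Cyp3a25, Cyp3a44), the main drug-oxidising subfamily of liver, and 23 of 30 Cyp2 genes (Cyp2a12, Cyp2b9, Cyp2b10, Cyp2b13, Cyp2b19, Cyp2c23, Cyp2c29, Cyp2c37, Cyp2c38, Cyp2c39, Cyp2c50, Cyp2c55, Cyp2c70, Cyp2d9, Cyp2d10, Cyp2d12, Cyp2d13, Cyp2d34, Cyp2e1, Cyp2f2, Cyp2j5, Cyp2j11, Cyp2s1). Family 4 contributed Cyp4a10, Cyp4a14, Cyp4a31, Cyp4f14 and Cyp4f15. The remainder were Cyp1a2, the bile acid enzymes Cyp7a1 and Cyp8b1, the steroid enzymes Cyp11a1, Cyp11b1, Cyp11b2 and Cyp19a1, and the vitamin D activating enzyme Cyp27b1. Their values ran from 2.07 to 4.89, with a median of 3.10. Cyp1a2 lies next to Cyp1a1 in the annotation, and it stayed at or under the level on all arrays while its neighbour did not.

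**Figure D1:**
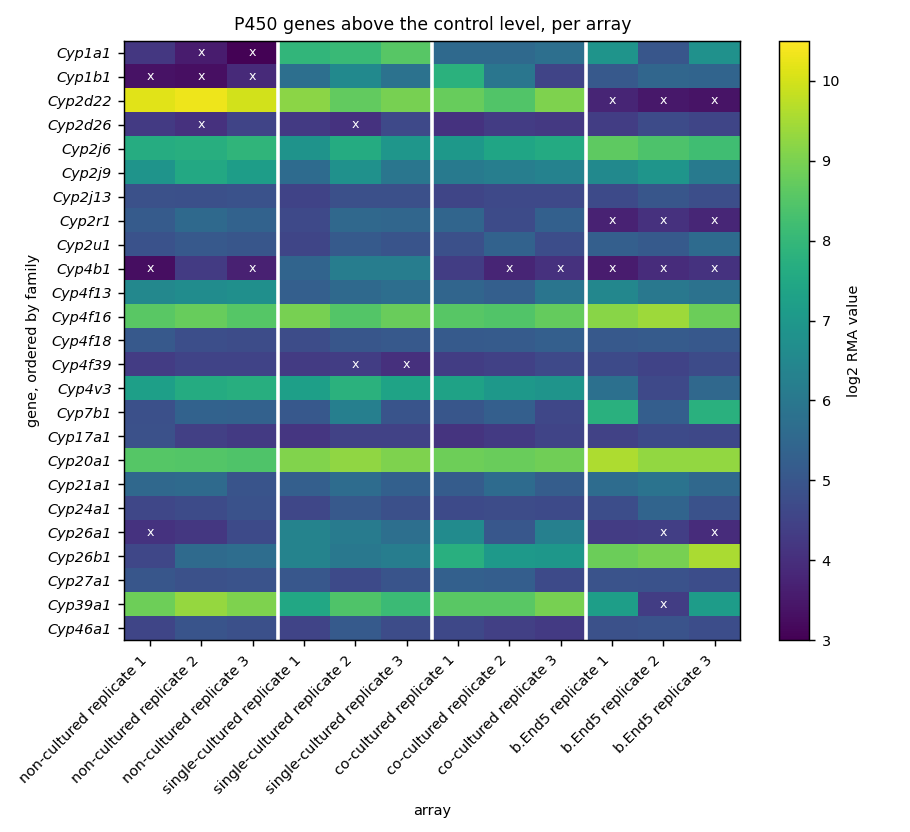
Log2 RMA values (colour) of the 25 P450 genes above the control level (rows, ordered by family) on the 12 arrays (columns), with a white x where a value lies at or under the control level of that array. Cyp2d22 carries an x on all 3 b.End5 arrays and Cyp1b1 on all 3 non-cultured arrays.

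Of the 66 genes, 14 were called in at least 1 of 5 comparisons, where a call needed a difference of 2-fold or more and an adjusted p from limma below 0.05. The share of all genes called in at least 1 of them was not computed, so this count has no background. Between single-cultured and non-cultured cells 4 rose (Cyp1a1, Cyp1b1, Cyp26a1, Cyp4b1), where 7.18% of all genes rose, and 4 fell (Cyp2d22, Cyp2e1, Cyp2j9, Cyp4f13), where 5.82% fell. Together these were 12.1% of the P450 genes against 13.0% of all genes. In co-cultured against non-cultured cells 4 rose (Cyp1a1, Cyp1b1, Cyp26a1, Cyp26b1) and 3 fell (Cyp2d22, Cyp2e1, Cyp4f13), 10.6% against 15.3% of all genes, of which 9.11% rose and 6.2% fell. In b.End5 against non-cultured cells 4 rose (Cyp1a1, Cyp1b1, Cyp26b1, Cyp7b1) and 5 fell (Cyp2d22, Cyp2e1, Cyp2r1, Cyp39a1, Cyp4v3), 13.6% against 18.2%, of which 9.11% rose and 9.06% fell. In co-culture 0 genes were called higher and 2 lower than in single culture (Cyp1a1, Cyp4b1), 3.03% against 1.19% of all genes, of which 0.901% were higher and 0.289% lower, and 4 P450 genes had an unadjusted p under 0.05 in this limma comparison. In b.End5 2 genes were higher than in single culture (Cyp26b1, Cyp2j6) and 7 lower (Cyp1a1, Cyp26a1, Cyp2d22, Cyp2r1, Cyp39a1, Cyp4b1, Cyp4v3), 13.6% against 14.1%, of which 6.25% were higher and 7.82% lower. The higher share between the cultures rests on 2 genes, and no share of all genes was computed for the unadjusted p there. The call of Cyp4b1 ended in a fit of those 2 sources with same-numbered arrays as blocks. The share of P450 genes called was near or under that of all genes in the other 4 comparisons. These shares count the 41 P450 genes not above the control level, of which only Cyp2e1 was called, and no share was computed for the 25 above it. The median log2 difference of the members was -0.02, -0.04, 0.11, -0.07 and 0.12 in these 5 comparisons, beside -0.0025, -0.04, 0.08, -0.01 and 0.08 over all genes. The 3 comparisons with non-cultured cells share those arrays, and the 3 with single-cultured cells share theirs. Co-cultured and b.End5 arrays each enter 2 comparisons, so the results of the 5 are not independent.

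Replicate 2 of b.End5 was unlike its group: 1106 genes differed by over 1 log2 unit between it and replicate 1 and 1193 between it and replicate 3, but 42 between replicates 1 and 3. Among the P450 genes the numbers were 4, 3 and 0. Each P450 call in b.End5 whose value is given below is therefore also given without it, as are listed genes where leaving it out moved a printed fold by over 1.5 times. Without it, 7 P450 genes instead of 9 were called between b.End5 and non-cultured cells and 9 between b.End5 and single-cultured cells. Pairs of arrays had 92 to 151 such genes in non-cultured, 111 to 421 in single-cultured and 316 to 645 in co-cultured cells. The endothelial markers Pecam1, Cdh5, Cldn5, Tek, Tie1, Kdr, Flt1, Vwf, Emcn and Erg lay above the control level in every source, with a list mean between 11.49 and 12.70 on all arrays. In b.End5 cells Flt1 and Vwf were lower than in non-cultured cells, and Flt1 and Tek were lower in both primary cultures.

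**Figure D2:**
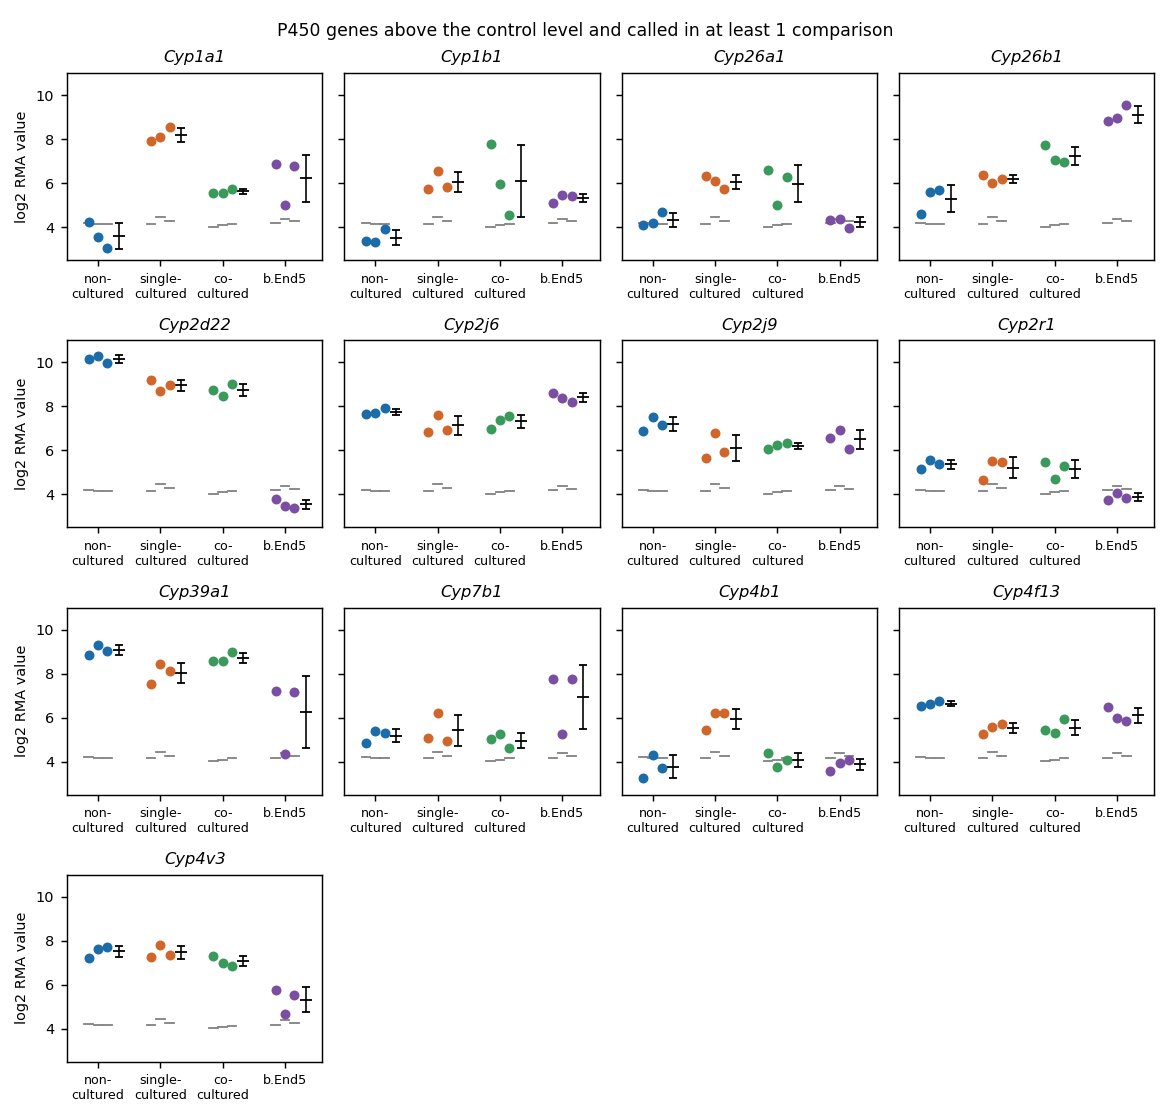
Log2 RMA values of the 13 P450 genes above the control level and called in at least 1 comparison, with a point for each array, black bars for the mean and SD of 3 arrays, and a short grey line for each array's control level. Cyp1a1 is highest on the 3 single-cultured arrays, and Cyp26b1 on the 3 b.End5 arrays.

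Cyp1a1 and Cyp1b1 oxidise polycyclic aromatic hydrocarbons, and both are classical targets of the aryl hydrocarbon receptor, a ligand-activated transcription factor that binds the DNA core GCGTG. Because both rose in culture, the 250 bases upstream of the transcription start in the RefSeq promoter table (GRCm38.p6) are shown. Cyp1a1 is at chr9:57697363-57697612 on the plus strand and Cyp1b1 at chr17:79715062-79715311 on the minus strand. Each runs 5′ to 3′ along the gene, with GCGTG or its complement CACGC in capitals.
Cyp1a1: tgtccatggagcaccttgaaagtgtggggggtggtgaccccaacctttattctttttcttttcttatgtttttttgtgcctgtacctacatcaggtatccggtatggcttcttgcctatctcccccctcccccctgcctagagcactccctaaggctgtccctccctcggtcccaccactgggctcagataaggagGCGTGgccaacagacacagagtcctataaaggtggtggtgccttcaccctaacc
Cyp1b1: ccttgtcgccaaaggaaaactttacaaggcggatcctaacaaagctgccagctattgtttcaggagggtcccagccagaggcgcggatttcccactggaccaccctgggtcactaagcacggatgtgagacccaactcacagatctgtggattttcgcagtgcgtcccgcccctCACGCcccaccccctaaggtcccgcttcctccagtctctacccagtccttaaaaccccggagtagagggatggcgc
Each window held 1 core, at -54 to -50 in Cyp1a1 and, on the other strand, at -76 to -72 in Cyp1b1. The core occurred, on either strand, in 28.2% of 32851 promoter windows of this length, so its presence is a description of the letters only. Of the 66 P450 genes, 49 had a promoter in the sequence table.

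Cyp1a1 was near the control level in non-cultured cells and rose in all 3 cultured sources. Its values were 4.23, 3.57 and 3.05 on the non-cultured arrays, 1 of them above the control level. They were 7.92, 8.09 and 8.54 on the single-cultured and 5.56, 5.57 and 5.75 on the co-cultured arrays. In b.End5 they were 6.87, 5.01 and 6.79, replicate 2 being the low value. No array of any cultured source overlapped with the non-cultured arrays, and the single-cultured arrays lay above all others. The log2 difference from non-cultured cells was 4.57 (SE 0.44, limma adjusted p = 1.18e-05, n = 3 arrays a group) in single culture, a 23.7-fold rise. It was 2.01 (SE 0.44, adjusted p = 0.00389 by limma) in co-culture and 2.60 (SE 0.44, adjusted p = 5.57e-04 by limma) in b.End5, or 3.21 without b.End5 replicate 2. Because 2 of 3 non-cultured arrays lay under the control level, these folds depend on values near it.

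With glia in the well, Cyp1a1 was 5.9-fold lower than in single culture, a log2 difference of -2.56 (SE 0.44, limma adjusted p = 0.0105). Leaving out replicate 3 of single culture ended the call (-2.38, limma adjusted p = 0.0538), and adjusted p-values over its 20 alternatives ran from 7.57e-04 to that value. With the replicate number as a block within those 6 arrays, the limma adjusted p was 0.0126. The b.End5 cells were also lower than single-cultured cells, by a log2 difference of -1.96 (SE 0.44, limma adjusted p = 0.00526), or -1.36 without b.End5 replicate 2.

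Cyp1b1, which also oxidises oestradiol and retinol, lay under the control level on all non-cultured arrays, at 3.37, 3.32 and 3.90. On the single-cultured arrays it was at 5.73, 6.57 and 5.84, and in b.End5 at 5.10, 5.46 and 5.41. The co-cultured arrays spread from 4.54 in replicate 3 through 5.95 in replicate 2 to 7.79 in replicate 1. Every cultured array lay above every non-cultured array. Cyp1b1 was at least 3.66-fold higher in single culture (limma adjusted p = 0.00817), at least 3.8-fold in co-culture (0.0061) and at least 2.22-fold in b.End5 (0.035). The co-culture difference of 2.56 was 1.72 without replicate 1 and 3.34 without replicate 3, and it passed the limma test in both cases. The call in b.End5 ended without any single array of the non-cultured or b.End5 group (limma adjusted p between 0.0521 and 0.0979 in those 6 fits, and 0.0698 without b.End5 replicate 2). Between co-culture and single culture the arrays overlapped and Cyp1b1 did not pass (0.05, SE 0.60).

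Genes of the aryl hydrocarbon receptor pathway were taken from a list of 12, of which 11 were measured. In single culture 4 rose (Ahr, Ahrr, Nqo1, Ugt1a6a) and 1 fell (Tiparp), with a list median of 0.51. In co-culture 3 rose (Ahr, Ahrr, Ugt1a6a) and Tiparp fell, and in b.End5 the same 4 genes as in single culture rose and none fell. With b.End5 replicate 2 left out, or with either rescaling of the arrays (median centring or cyclic loess), 4 rose and 1 fell in b.End5. The receptor itself, Ahr, went from 7.35, 7.74 and 7.48 on the non-cultured arrays to 9.91, 10.21 and 9.80 on the single-cultured arrays. Its log2 difference was 2.45 (SE 0.18) in single culture, 1.98 in co-culture and 2.07 in b.End5. No cultured array overlapped with the non-cultured arrays, and Arnt, the DNA-binding partner of the receptor, did not pass in any of the 5 comparisons (-0.29 to -0.02).

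Ahrr, a repressor of the receptor that is itself a receptor target, lay under the control level on all non-cultured arrays. It averaged 8.17 ± 0.73 (SD, n = 3) in single culture and was at 6.19, 6.16 and 4.30 in co-culture and at 8.20, 10.37 and 8.10 in b.End5, replicate 2 being the highest there. Its rise was at least 16.0-fold in single culture, at least 2.6-fold in co-culture and at least 26.3-fold in b.End5, or at least 15.8-fold there without replicate 2. Co-cultured arrays lay between the non-cultured and the single-cultured ones, as for Cyp1a1, but the difference between co-culture and single culture did not pass (-2.62, SE 0.65, limma adjusted p = 0.0634). Without b.End5 replicate 2, 2 genes of the list instead of 1 were called lower in co-culture than in single culture. Nqo1, a quinone reductase under the control of this receptor and of Nrf2, had means of 6.72 in non-cultured, 8.72 in single-cultured, 7.47 in co-cultured and 11.87 in b.End5 cells. It was lower in co-culture than in single culture by a log2 difference of -1.24 (SE 0.23, limma adjusted p = 0.0154), a call that ended with the replicate block within those 6 arrays (adjusted p = 0.0618 by limma) but not with the block over all 12 (0.0198). In b.End5 it was 35.5-fold higher than in non-cultured cells, where Cyp1a1 was 6.08-fold higher, or 9.27-fold without b.End5 replicate 2.

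Ugt1a6a, a glucuronosyltransferase whose transcript shares exons with other Ugt1a genes, had means of 4.85 in non-cultured, 8.01 in single-cultured, 8.45 in co-cultured and 9.67 in b.End5 cells. Unlike for Cyp1a1, its co-cultured mean was not under the single-cultured one. Tiparp, a receptor-induced ADP-ribosyltransferase, fell by 1.04 in single culture and by 1.21 in co-culture, opposite to the other called genes of the list. The list member Aldh3a1 lay under the control level in all 4 sources.

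**Figure D3:**
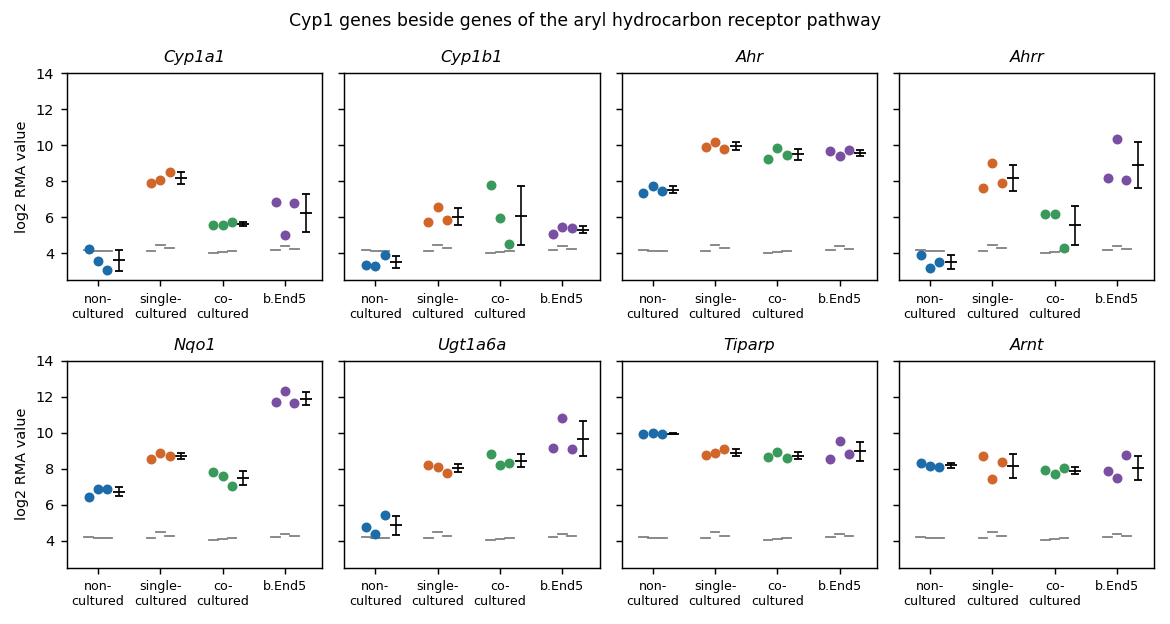
Log2 RMA values of Cyp1a1 and Cyp1b1 beside 6 genes of the aryl hydrocarbon receptor pathway, with a point for each array, black bars for the mean and SD of 3 arrays, and a short grey line for each array's control level. Ahr is higher on all cultured arrays than on the non-cultured ones, and Tiparp lies highest in non-cultured cells.

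Cyp26a1 and Cyp26b1 break down retinoic acid, the vitamin A derivative that acts through the receptors Rara, Rarb and Rarg. Both genes are known to be induced by retinoic acid in many cell types, and their upstream sequences are shown in the same way. Cyp26a1 is at chr19:37697558-37697807 on the plus strand and Cyp26b1 at chr6:84593811-84594060 on the minus strand (RefSeq, GRCm38.p6). Capitals mark core hexamers of retinoic acid receptors, for which 4 spellings were searched on both strands: the spelling AGGTCA, the spelling AGTTCA, the spelling GGTTCA and the spelling GGGTCA.
Cyp26a1: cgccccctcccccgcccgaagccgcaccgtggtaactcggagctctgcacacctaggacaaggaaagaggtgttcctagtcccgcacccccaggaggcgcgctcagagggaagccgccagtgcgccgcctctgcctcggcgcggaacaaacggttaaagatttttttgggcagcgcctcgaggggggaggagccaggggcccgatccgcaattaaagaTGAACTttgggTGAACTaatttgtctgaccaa
Cyp26b1: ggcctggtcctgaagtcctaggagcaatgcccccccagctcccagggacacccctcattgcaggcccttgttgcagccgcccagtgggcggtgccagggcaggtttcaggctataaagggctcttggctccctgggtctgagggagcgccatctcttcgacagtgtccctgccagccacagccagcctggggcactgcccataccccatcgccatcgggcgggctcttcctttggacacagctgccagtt
The Cyp26a1 window held 2 core hexamers, both AGTTCA on the opposite strand, at -32 to -27 and -21 to -16. They form a direct repeat with a spacer of 5 bases, a spacing known for these receptors. Such a pair, with any of the 4 spellings on either strand, was found in 0.0883% of the 32851 windows, and at least 1 hexamer in 38.6%. No such hexamer was found in these 250 bases of Cyp26b1, and sequence outside the window was not searched. These counts describe the letters only, and their part in the expression of either gene was not tested. The Cyp1a1 and Cyp1b1 windows each held 1 hexamer, GGGTCA, and no pair.

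Cyp26a1 was higher in both primary cultures and stayed near the control level in non-cultured and b.End5 cells. It was at 4.09, 4.21 and 4.70 in non-cultured and at 4.34, 4.38 and 3.96 in b.End5 cells. It was at 6.34, 6.11 and 5.73 in single culture and at 6.62, 5.02 and 6.27 in co-culture. The arrays of both primary cultures lay above all arrays of the other 2 sources. The rise was 3.31-fold in single culture (log2 1.73, SE 0.35, limma adjusted p = 0.00273) and 3.11-fold in co-culture (1.64, SE 0.35, adjusted p = 0.00323). In b.End5 the difference from non-cultured cells did not pass (-0.11, SE 0.35), and Cyp26a1 was lower than in single culture by a log2 difference of -1.84 (SE 0.35, limma adjusted p = 0.00179), or -1.91 without b.End5 replicate 2.

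Cyp26b1 was lowest in non-cultured cells and highest in b.End5. The non-cultured arrays were at 4.59, 5.60 and 5.69 and the single-cultured ones at 6.36, 6.01 and 6.19. Co-cultured arrays were at 7.73, 7.04 and 6.96, and b.End5 arrays at 8.83, 8.97 and 9.56. No 2 sources overlapped, so the order of the arrays was non-cultured, single-cultured, co-cultured and b.End5. The rise over non-cultured cells was 14.2-fold in b.End5 (log2 3.82, SE 0.31, limma adjusted p = 1.31e-06) and 3.86-fold in co-culture (1.95, SE 0.31, adjusted p = 4.34e-04). In single culture the difference of 0.89 (SE 0.31, limma adjusted p = 0.0487) lay under 2-fold, although it was called without non-cultured replicate 3 (1.09, adjusted p = 0.0383), and adjusted p-values over 19 alternatives ran from 0.0368 to 0.182. Neighbours in this order that were not called were single culture and non-culture, and co-culture and single culture (1.05, SE 0.31, limma adjusted p = 0.124). The difference between the neighbours co-culture and b.End5 was not tested. Against single culture, b.End5 was 7.62-fold higher. Without b.End5 replicate 2 its rises were 14.9-fold over non-cultured and 8.03-fold over single-cultured cells.

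Of 11 other genes of retinoid handling, in single culture 1 rose (Crabp1) and 3 fell (Aldh1a1, Dhrs3, Stra6), and in b.End5 none rose and 2 fell (Aldh1a1, Stra6). In co-culture 2 rose (Aldh1a2, Crabp1) and 2 fell (Aldh1a1, Stra6). Aldh1a1, which makes retinoic acid, was at least 23.7-fold lower in single culture, at least 27.5-fold lower in co-culture and at least 23.9-fold lower in b.End5. Stra6, the retinol importer, fell by 3.45, 3.72 and 3.41 log2 units in the same order. Crabp1, a carrier of retinoic acid in the cytosol, was at least 4.37-fold higher in single culture and at least 13.2-fold higher in co-culture. The receptor Rarb, a known retinoic acid target, was higher in b.End5 than in non-cultured cells, by 2.26 (SE 0.42), with values of 7.29, 5.58 and 7.31 of which replicate 2 was the lowest. Dhrs3, a retinal reductase, was 2-fold higher in co-culture than in single culture, a call that ended with median centring, with cyclic loess and with the replicate block, both over all 12 arrays (limma adjusted p = 0.0726) and within the 6 (0.161).

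Cyp2d22, a gene of the drug-oxidising Cyp2d subfamily, had the widest range of group means among the P450 genes. It was at 10.17, 10.31 and 9.99 in non-cultured cells and at 9.19, 8.71 and 8.97 in single culture. Co-cultured arrays were at 8.75, 8.46 and 9.04, and b.End5 arrays at 3.77, 3.48 and 3.39, all 3 under the control level. The b.End5 arrays lay apart from all others, and both primary cultures lay under the non-cultured arrays. Cyp2d22 was at least 58.6-fold lower in b.End5 than in non-cultured cells (limma adjusted p = 2.41e-10) and at least 25.5-fold lower than in single culture (1.86e-09), or at least 61.0-fold and 26.6-fold without b.End5 replicate 2. In single culture it fell by 1.20 (SE 0.18, limma adjusted p = 3.52e-04) and in co-culture by 1.40 (SE 0.18, adjusted p = 8.78e-05). Between the primary cultures it did not pass (-0.20, SE 0.18). Cyp2d26 lay just above the control level with no call, and Cyp2d9, Cyp2d10, Cyp2d12, Cyp2d13 and Cyp2d34 did not lie above it.

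The Cyp2j genes, of a subfamily known for the oxidation of arachidonic acid, gave smaller differences. Cyp2j9 was at 6.88, 7.53 and 7.16 in non-cultured cells and at 5.63, 6.78 and 5.95 in single culture, where it fell by 1.07 (SE 0.29, limma adjusted p = 0.0171). Single-cultured replicate 2 was close to the non-cultured arrays without overlapping with them. The call ended without non-cultured replicate 2 (-0.90), single-cultured replicate 1 (-0.82) or single-cultured replicate 3 (-0.98), and limma adjusted p-values over the 19 alternatives ran from 0.00228 to 0.0747. In co-culture the difference of -0.98 lay under 2-fold (limma adjusted p = 0.0219). Cyp2j6, its neighbour in the annotation, was at 8.63, 8.40 and 8.19 in b.End5 against 6.84, 7.62 and 6.93 in single culture, a 2.42-fold rise (limma adjusted p = 9.02e-04, and 0.00211 without b.End5 replicate 2). Its difference from non-cultured cells in b.End5 was 0.65 (SE 0.22, adjusted p = 0.0340 by limma), under 2-fold.

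Cyp2e1, known for the oxidation of ethanol, was called lower in all 3 cultured sources but lay above the control level on only 2 non-cultured arrays (4.64, 3.82 and 4.21) and on none of the others. Its bound in co-culture was at least 1.1-fold lower, and in single culture and b.End5 no fold can be given. Without b.End5 replicate 2 its difference there was -0.99 instead of -1.13, under 2-fold, which ended the call. Beside it the epoxide hydrolase Ephx1, which acts on P450 products, fell by 2.01 in single culture and by 2.15 in co-culture, while in b.End5 it was at 10.98, 11.88 and 10.86 against 11.38, 11.39 and 11.46 in non-cultured cells. Of 15 enzymes of epoxide and eicosanoid metabolism, 2 rose and 3 fell in single culture, 3 rose and 3 fell in co-culture, and 2 rose and 4 fell in b.End5. Without b.End5 replicate 2 the b.End5 counts were 3 and 4. Alox5ap and the inducible prostaglandin synthase Ptgs2 rose in both primary cultures, where Ptgds fell. In b.End5 the prostaglandin synthase Ptgs1 rose 58.4-fold and the leukotriene synthase Ltc4s 19.0-fold, and Ptgs2, Ptgds and Ptges fell, Ptges by 3.48. Alox12, a lipoxygenase, fell in all 3, by 1.89, 2.31 and 2.38 in single culture, co-culture and b.End5.

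Of the P450 genes of sterol and vitamin D metabolism, Cyp39a1, Cyp7b1 and Cyp2r1 were called, each between b.End5 and non-cultured cells. Cyp39a1, which hydroxylates the brain oxysterol 24-hydroxycholesterol, was at 8.83, 9.31 and 9.04 in non-cultured and at 7.51, 8.44 and 8.13 in single-cultured cells. It was at 8.58, 8.59 and 8.96 in co-culture and at 7.22, 4.35 and 7.15 in b.End5. Replicate 2 of b.End5 did not lie above the control level there and was far from the other arrays of its group. The log2 difference of b.End5 from non-cultured cells was -2.82 (SE 0.60, limma adjusted p = 0.00283), and -1.88 without replicate 2. Against single culture it was -1.78 (SE 0.60, limma adjusted p = 0.0430), and it was -0.84 without replicate 2, under 2-fold, with adjusted p-values from 0.0205 to 0.138 over 19 alternatives, of which 12 ended the call. In single culture the difference from non-cultured cells was -1.04 (SE 0.60) and did not pass, but passed when b.End5 replicate 2 was left out of the pooled spread (limma adjusted p = 0.00347) or when the 6 arrays of the 2 groups were fitted alone (0.0107). Over the 19 alternatives of that value, the limma adjusted p ran from 0.00347 to 0.487.

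Cyp7b1, another oxysterol hydroxylase, was at 7.77 on b.End5 replicates 1 and 3 but at 5.25 on replicate 2, within the range of the other sources. Non-cultured arrays were at 4.83, 5.37 and 5.32, single-cultured at 5.08, 6.22 and 4.95, and co-cultured at 5.00, 5.26 and 4.59. The groups overlapped through replicate 2. The log2 difference of b.End5 from non-cultured cells was 1.76 (SE 0.58, limma adjusted p = 0.0326), and 2.60 without replicate 2 (adjusted p = 8.85e-05). With other alternatives the adjusted p rose to 0.125, and 7 of 19 ended the call. Against single culture Cyp7b1 did not pass (1.51, SE 0.58), but it did when replicate 2 of b.End5 (2.35, limma adjusted p = 2.78e-04) or of single culture (1.92, limma adjusted p = 0.0423) was left out, with 0.228 as the highest of its 19 alternatives.

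Cyp2r1, the vitamin D 25-hydroxylase, was at 3.72, 4.07 and 3.82 in b.End5, under the control level on all 3 arrays. It was at 5.14, 5.57 and 5.37 in non-cultured, at 4.65, 5.53 and 5.48 in single-cultured and at 5.46, 4.71 and 5.30 in co-cultured cells. The b.End5 arrays lay under all others, at least 2.11-fold lower than in non-cultured cells (limma adjusted p = 5.87e-04) and at least 1.91-fold lower than in single culture (adjusted p = 0.00171), or at least 2.2-fold and at least 1.99-fold without b.End5 replicate 2. Cyp24a1, which inactivates vitamin D, had group means from 4.71 to 5.02, and Cyp27a1, the sterol 27-hydroxylase, from 4.86 to 5.08. Cyp46a1, the neuronal cholesterol hydroxylase, had means from 4.45 to 4.85, and none of these 3 was called. Of 12 further genes of sterol metabolism and transport, 1 rose in single culture and in co-culture (Soat1, 5.10-fold and 5.30-fold). In b.End5 3 rose (Hsd3b7, Lss, Soat1) and 2 fell (Abca1, Ch25h), or 4 and 1 without b.End5 replicate 2.

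In family 4 the fatty acid hydroxylase Cyp4b1 was higher in single culture and near the control level elsewhere. It was at 5.41, 6.19 and 6.19 in single culture and at 3.27, 4.31 and 3.70 in non-cultured cells. Co-cultured arrays were at 4.37, 3.76 and 4.08, and b.End5 arrays at 3.58, 3.94 and 4.09. The single-cultured arrays lay above all others and the other 3 sources overlapped. The rise over non-cultured cells was 4.5-fold (log2 2.17, SE 0.29, limma adjusted p = 1.49e-04), with 1 of 3 non-cultured arrays above the control level. In co-culture Cyp4b1 was 3.62-fold lower than in single culture (-1.85, SE 0.29, limma adjusted p = 0.00635), with 1 co-cultured array above the level. With the replicate number as a block within those 6 arrays the limma adjusted p was 0.0527, which ends the call and is the highest over its 19 alternatives, the lowest being 0.00445. Against b.End5 the single-cultured level was at least 3.13-fold higher, or at least 3.26-fold without b.End5 replicate 2.

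Cyp4f13 fell in both primary cultures, by 1.12 (SE 0.20, limma adjusted p = 0.00141) and by 1.09 (SE 0.20, adjusted p = 0.00141). It was at 6.51, 6.64 and 6.75 in non-cultured, 5.27, 5.57 and 5.70 in single-cultured and 5.44, 5.28 and 5.91 in co-cultured cells. Neither culture overlapped with the non-cultured arrays. The falls were close to 2-fold, and lay under it without single-cultured replicate 1 (-0.9974) or co-cultured replicate 2 (-0.96), both with limma adjusted p-values under 0.05 (0.00819 and 0.00792). In b.End5 the arrays were at 6.49, 5.998 and 5.83, and the difference of -0.53 did not pass. Cyp4v3, the mouse counterpart of the human fatty acid hydroxylase CYP4V2, was lower in b.End5, at 5.77, 4.66 and 5.54 against 7.22, 7.62 and 7.70 in non-cultured cells. Its log2 difference was -2.19 (SE 0.27, limma adjusted p = 4.66e-05), or -1.86 without replicate 2, and its arrays in single culture (7.24, 7.80 and 7.35) and co-culture (7.31, 6.99 and 6.87) overlapped with the non-cultured ones.

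**Figure D4:**
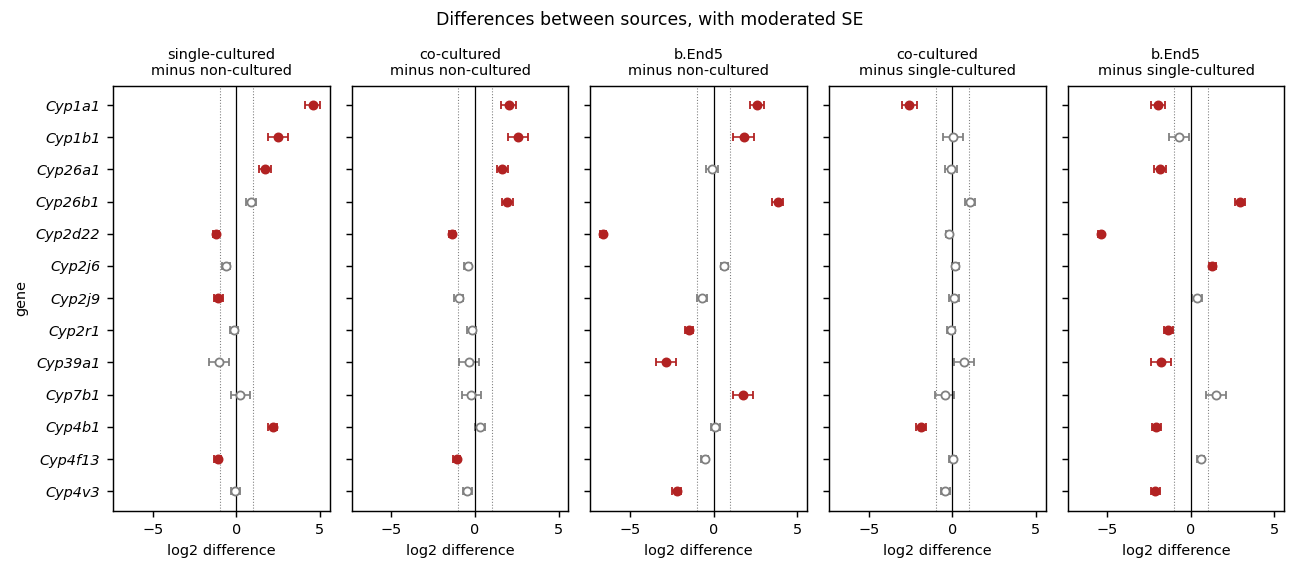
Log2 differences (horizontal axis) of the 13 P450 genes in the 5 comparisons, with bars for the moderated SE from limma, filled red points for calls and dotted lines at a 2-fold difference. Cyp1a1 lies right of 0 in the 3 comparisons with non-cultured cells and left of 0 in both comparisons with single-cultured cells.

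The 12 P450 genes above the control level and called in none of the comparisons were Cyp17a1, Cyp20a1, Cyp21a1, Cyp24a1, Cyp27a1, Cyp2d26, Cyp2j13, Cyp2u1, Cyp46a1, Cyp4f16, Cyp4f18 and Cyp4f39. Their log2 differences ran from -0.36 to 0.90. Cyp20a1, whose substrate is not known, was higher in all cultured sources by less than 2-fold, with means of 8.48 ± 0.04 (SD, n = 3) in non-cultured, 9.13 ± 0.11 in single-cultured, 8.84 ± 0.05 in co-cultured and 9.39 ± 0.16 in b.End5 cells. The limma adjusted p was 9.43e-04, 0.0266 and 4.64e-05 in this order, and the arrays of the sources did not overlap with the non-cultured ones. Cyp4f16 had means of 8.61, 8.75, 8.58 and 9.13 in the same order of sources. In all, 2, 3, 4, 0 and 4 P450 genes had a limma adjusted p under 0.05 with a difference under 2-fold in the 5 comparisons. No share of all genes was computed for these counts. The arrays of the 2 groups did not overlap for 15, 17, 21, 9 and 19 of the 66 genes, or 22.7%, 25.8%, 31.8%, 13.6% and 28.8%, against 45.2%, 51.1%, 49.2%, 19.9% and 41.5% of all genes.

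P450 enzymes whose symbols follow another pattern were Cyp51, Ptgis and Tbxas1. Cyp51, the lanosterol demethylase of cholesterol synthesis, rose by 1.12 (SE 0.16) in single culture and by 1.49 (SE 0.16) in b.End5. Without b.End5 replicate 2 the rise there was 1.55. The Cyp51 difference of 0.78 in co-culture lay under 2-fold. Ptgis, the prostacyclin synthase of endothelium, was at 9.55, 9.95 and 9.70 in non-cultured and at 6.46, 7.21 and 6.04 in b.End5 cells. Ptgis was 8.96-fold lower there (limma adjusted p = 6.8e-06), or 11.2-fold lower without b.End5 replicate 2. It did not pass in single culture (-0.19) or co-culture (0.14). Tbxas1, the thromboxane synthase, did not pass in any comparison.

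Of 8 measured electron donors and partners of 10 listed, limma called 0 in each of the 5 comparisons, while 4, 4, 7, 1 and 3 had an unadjusted p under 0.05. Por, the reductase that passes electrons to P450 enzymes of the endoplasmic reticulum, had group means of 8.48, 8.23, 8.13 and 8.13 in non-cultured, single-cultured, co-cultured and b.End5 cells. Of 13 genes of haem synthesis and breakdown, 1 rose and 2 fell in single culture, 1 rose and 1 fell in co-culture, and 4 rose and 2 fell in b.End5. Alas2, the red cell form of the first enzyme of haem synthesis, fell in all 3, and Alad, the next enzyme, fell in single culture. Hmox1, the haem-degrading enzyme, rose 6.16-fold in single culture, 2.87-fold in co-culture and 4.30-fold in b.End5, and was lower in co-culture than in single culture (-1.10, SE 0.23, limma adjusted p = 0.0287, and 0.0474 with the replicate block within the 6 arrays). Alas1, which starts haem synthesis outside red cells, fell by 2.07 in b.End5, where Alad rose by 2.10. Of 18 nuclear receptors that control P450 genes, 1 rose and 3 fell in single culture, 1 rose and 2 fell in co-culture, and 2 rose and 1 fell in b.End5. Ppara and Rarg fell in single culture, Rarg in co-culture, and Rarb rose in b.End5. Pparg, a fatty acid receptor, rose in all 3 and the glucocorticoid receptor Nr3c1 fell in all 3, by 1.31, 1.26 and 1.00, while the drug receptor Nr1i2 lay under the control level on all arrays.

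Markers of other cell types moved with the sources, and their part in the P450 results was not tested. In bulk RNA, fewer cells of a type and less RNA per cell cannot be told apart. Of 12 microglia and macrophage markers 4 rose in single culture and 5 in co-culture and none fell, and the mean of the list was 6.11 to 6.68 on non-cultured, 7.27 to 7.90 on single-cultured, 7.31 to 8.26 on co-cultured and 5.16 to 5.51 on b.End5 arrays. In b.End5 1 rose and 4 fell, and P2ry12, Itgam and Ptprc lay under the control level. Without b.End5 replicate 2 P2ry12 was also called lower there (-1.06 instead of -0.99). Of 10 fibroblast markers 1 rose in single culture and 5 rose and 1 fell in co-culture, and 3 fell in b.End5 (2 without replicate 2, Dcn being lost), with list means of 5.24 to 5.63, 5.56 to 5.89, 6.04 to 7.01 and 4.60 to 4.97 in the same order. Lum and Dpt lay under the control level in every source. The pericyte and smooth muscle list had 1 of 10 higher and 5 lower in single culture, 2 higher and 4 lower in co-culture and 8 lower in b.End5, with list means of 8.10 to 8.75, 6.51 to 7.07, 7.38 to 8.39 and 4.84 to 5.36. Rgs5 and Notch3 lay under the control level in b.End5. Between the primary cultures, where Cyp1a1 and Cyp4b1 were lower with glia, the fibroblast markers Col1a1 (log2 2.499) and Col1a2 (2.86) and the pericyte marker Rgs5 (1.53) were called higher with glia. These were 2 of 10 fibroblast and 1 of 10 pericyte and smooth muscle markers, and the others of both lists were not called. With the replicate block within the 6 arrays the limma adjusted p was 0.079 for Col1a1, which ends its call, 0.0491 for Col1a2 and 0.036 for Rgs5. In that comparison limma called 0 of 12 microglia and macrophage markers and 0 of 9 astrocyte markers, with 1 and 0 at an unadjusted p under 0.05. Without b.End5 replicate 2 the difference of the astrocyte marker Sox9 between b.End5 and non-cultured cells was -0.47 instead of -1.14, which ended its call. With all arrays, 5, 4 and 4 of 9 measured astrocyte markers fell in single culture, co-culture and b.End5. The list mean was 6.74 to 6.81 on non-cultured and 5.86 to 6.17 on all other arrays. In the same order 2, 3 and 3 of 8 neuron markers fell, with 1 rise in b.End5, and of 8 measured oligodendrocyte markers 1 rose and 1 fell, in b.End5, and limma called none in the primary cultures. Of 5 genes listed for liver, a tissue not sampled, 1 fell in b.End5. This gene, Ttr, was at 8.91, 10.22 and 12.63 on the non-cultured arrays. Its mean was 8.85 in single culture and 9.23 in co-culture, and the cells it came from were not tested. Serpina1a lay under the control level in every source.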

How the data were processed

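RNA from 12 samples was measured on 12 arrays. The deposited table holds log2 values that the authors made with RMA, per the submitters' processing notes. Neither its version nor the probe-set definition is known from the sources used here. Per the labels' protocols, total RNA was treated with DNase on the column, amplified as cDNA from small inputs and labelled with biotin. All 12 columns were assigned to samples and 0 were left over.

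The table held 21625 probe sets, 64 of them Affymetrix controls. RefSeq accessions were matched to symbols through the RefSeq table of GRCm38.p6, which named 16533 of 21561. For 987 genes with several probe sets the brightest was used, leaving 15200 genes, and no gene was filtered out. P450 genes were those whose symbols follow the family pattern (Cyp51 is outside it), which 95 symbols of the RefSeq table do. The control level of each array came from 27 bacterial probe sets (percentile 95). Where no array of a group exceeded it, a fold is a bound taken from that level, and there is none where both groups lay there.

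Differences came from lmFit and eBayes of limma 3.58.1 (R 4.3.3, default settings). A single model held the 4 sources as means of 3 arrays each, which left 8 residual degrees of freedom. Benjamini-Hochberg adjustment ran over all genes of a comparison. Calls had an adjusted p below 0.05 and a log2 difference of 1 or more in size. SE is the moderated standard error, and the precision is limited by there being 3 arrays a source. The fit was tested on simulated data first. Python 3.11.15, pandas 2.3.3 and matplotlib 3.10.9 made tables and figures.

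Members, gene lists and comparisons were chosen with earlier results of these data known. Genes were named by a rule: each member above the control level with its call, and up to 3 called genes of a list in each direction. Protein sequences that this rule also asked for were not used here. Of the retinoid list, 1 gene is not reported here. The model did not use replicate numbers. After group means were removed, same-numbered single-cultured and co-cultured arrays correlated at 0.227, 0.135 and 0.232, all above 0.1. Blocked values therefore stand beside the named calls of that comparison, but the calls and counts come from the model without blocks. The blocks rest on these correlations and not on the labels. No other 2 groups had 3 correlations above 0.1, although non-cultured and single-cultured arrays had 0.180, 0.213 and -0.147. Arrays with different numbers were not correlated for reference. Alternatives were median centring, cyclic loess, leaving out the dimmest 30% of genes, the mean of a gene's probe sets and an intensity trend. Others were fits of 2 groups, replicate blocks, leaving out each array, other control levels and a looser array rule for that level.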

Additional observations from a re-analysis of the deposited data

Results flagged for a closer look

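In the model without blocks, the effect of 5 days in culture differed with and without glia for 2 P450 genes. The test was of the difference itself, which is the comparison of co-cultured with single-cultured cells. For Cyp1a1 that difference was -2.56 (log2, SE 0.44, limma adjusted p = 0.0105), with co-cultured arrays lower in 3 of 3, and the adjusted p was 0.0126 with the replicate block within those 6 arrays. Leaving out replicate 3 of single culture ended the Cyp1a1 call (-2.38, limma adjusted p = 0.0538). For Cyp4b1 the difference between the cultures was -1.85 (SE 0.29, limma adjusted p = 0.00635), again with 3 of 3 co-cultured arrays lower. With the replicate block within those 6 arrays the limma adjusted p was 0.0527, which ends the Cyp4b1 call.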

How the results depend on the processing

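Counts of called P450 genes stayed within 1.5 times under median centring, cyclic loess, the mean of a gene's probe sets, the intensity trend, the fits of 2 groups and the replicate block over all 12 arrays. With the dimmest 30% of genes left out, only 12 of the 66 P450 genes were tested, and the calls were 4 instead of 8 in single culture, 4 instead of 7 in co-culture and 1 instead of 2 between the cultures. With the replicate block within the 6 cultured arrays, an alternative chosen after seeing the data, 1 of 2 calls between the cultures was kept. Leaving out 1 array gave 6 to 9 calls in single culture, 6 to 8 in co-culture, 6 to 9 in b.End5, 1 to 2 between the cultures and 8 to 9 between b.End5 and single culture. The replicate block over all arrays ended the calls of Cyp7b1 in b.End5 (adjusted p = 0.0566 by limma) and of Cyp39a1 between b.End5 and single culture (0.0561), and its count was 8 instead of 9 in both. Of 1228 single values under an alternative, over 65 differences of 13 genes, 8 gained and 32 lost a call and none changed direction with a call. Of the gene list counts, the b.End5 rises of haem and sterol genes went from 4 to 3 and from 3 to 2 under cyclic loess. Centring on the median moved the median of all genes in co-culture against non-cultured cells from -0.04 to -0.19. Other control levels gave 22, 15 and 25 P450 genes above the level in place of 25. The 15 came with a level raised by 1 log2 unit. With the same level, a rule of at least 1 array of the 12 gave 30, and leaving out 1 array gave 25 to 27. The olfactory receptor level rests on 38 genes. It was 5.05 to 5.30 on the non-cultured arrays but 4.12 to 4.53 on all others, and counts per source were not computed with it. Values near the control level limit the folds of Cyp1a1, Cyp1b1, Cyp26a1, Cyp4b1 and Cyp2e1.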
